A study of Mus musculus with 34 samples.

Results

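The *HoxB* cluster genes are the 10 homeobox genes *Hoxb1* to *Hoxb9* and *Hoxb13*, which were picked by gene symbol from the table of FPKM (fragments on a gene, scaled for exon length and library size) and read in their order along the cluster. They make up 10 of the 22040 genes in the table. The study removed Hnrnpk, a nuclear protein that binds cytosine-rich RNA and single-stranded DNA, from the mouse limb bud. RNA-seq was done on limb bud cells at E11.5 from 3 biological replicates of WT (genotype Hnrnpk WT) and 3 of CKO, 6 libraries in all. In CKO embryos, Prrx1-Cre deleted *Hnrnpk* alleles in which loxP sites flank exons 4 to 7 (Prrx1-Cre;Hnrnpk fl/fl). Prrx1-Cre acts in limb bud mesenchyme and not in the ectoderm, less completely in the hindlimb, so other cells in the CKO limb buds keep the gene.

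Hox genes encode transcription factors that give cells their position along the body axis, and genes at the 3' end of a cluster are in general switched on earlier and further anterior than those at its 5' end. In the limb, the *HoxA* and *HoxD* genes have the main part in patterning, while *HoxB* genes are known mostly from the neural tube, the somites and the lateral plate mesoderm from which the limb bud grows. All 10 *HoxB* genes lie on the plus strand of chromosome 11 of GRCm38, from 96194316 to 96368256, with *Hoxb13* at the 5' end and *Hoxb1* at the 3' end. The cluster spans 174 kb. A gap of 74.0 kb separates *Hoxb13* from *Hoxb9*, and the other 9 genes lie within 96.8 kb.

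As read from the steps of the FPKM, the WT libraries 1, 2 and 3 held 17219135, 23165035 and 20869697 reads on the listed genes. The CKO libraries 1, 2 and 3 held 17140887, 21190300 and 24624444. *Hnrnpk* (ENSMUSG00000021546) had an FPKM of 193, 195 and 185 in WT and 127, 142 and 135 in CKO replicates 1, 2 and 3. Each CKO library was thus below each WT library, in the direction of the labels, although the value covers the whole gene and not the floxed exons alone. The log2 fold change was -0.50 (standard error 0.13), with a Benjamini-Hochberg adjusted *p* of 0.334 from limma, and of 0.0575 with the replicate number as a block. From voom on reads recovered from the FPKM, the adjusted *p* was 0.286, and 0.0223 with the block. Replicates 2 and 3 alone, a setting added after the data were seen, gave a limma adjusted *p* of 0.0377. Limb mesenchyme markers were present in each library, with a summed FPKM of the 10 genes on that list between 320 and 379 and *Twist1* the most abundant.

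The members fell into 2 classes by level. *Hoxb1*, a hindbrain gene at the 3' end, was listed at 0 in 4 libraries and had 1 read in WT replicate 2 and 1 read in CKO replicate 1. *Hoxb13*, a gene of the tail end of the body, was listed at 0 in 5 libraries and had 3 reads in CKO replicate 3. These outermost genes of the cluster were at or under 3 reads in each library, the limit that a count of 0 allows, and no fold change is given for them. The 8 genes between them were detected in all 6 libraries and had a mean FPKM of at least 0.5, the minimum for testing.

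Among these 8 genes the highest FPKM were at *Hoxb3* and *Hoxb9*. *Hoxb3* (ENSMUSG00000048763, 96323326 to 96347930), a gene of the anterior part of the cluster, had an FPKM of 5.69, 3.6 and 3.81 in WT and 4.41, 1.90 and 2.31 in CKO replicates 1, 2 and 3. *Hoxb9* (ENSMUSG00000020875), the 5'-most gene of the main block, had an FPKM of 6.21, 3.54 and 2.94 in WT and 4.53, 2.76 and 3.26 in CKO. For both genes, replicate 1 was the highest library of its group, and the CKO and WT values overlapped. *Hoxb2* (ENSMUSG00000075588, 96350525 to 96354012), which acts with *Hoxb1* in the hindbrain, had an FPKM of 2.5, 2.24 and 1.87 in WT and 1.52, 1.30 and 1.45 in CKO. It was the 1 member whose groups did not overlap, CKO being lower, and its spread was small in each group (SD 0.317 in WT and 0.112 in CKO, n = 3).

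*Hoxb6*, a gene of lateral plate mesoderm, had an FPKM of 4.32, 1.89 and 1.56 in WT and 3.01, 1.54 and 1.47 in CKO replicates 1, 2 and 3. *Hoxb7* had 1.87, 1.57 and 1.99 in WT and 1.93, 1.42 and 1.36 in CKO. *Hoxb4* had 1.92, 1.40 and 1.02 in WT and 1.72, 0.631 and 1.13 in CKO. Of these 3, *Hoxb6* was the most uneven within a group, with WT replicate 1 above both other WT libraries, and *Hoxb7* was the most even. *Hoxb5*, which helps to place the forelimb along the body, had 1.61, 1.05 and 0.872 in WT and 1.23, 0.675 and 0.963 in CKO. *Hoxb8* had 1.43, 0.824 and 0.748 in WT and 1.26, 0.634 and 0.589 in CKO. The groups overlapped for each of *Hoxb4* to *Hoxb8*.

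**Figure D1:**
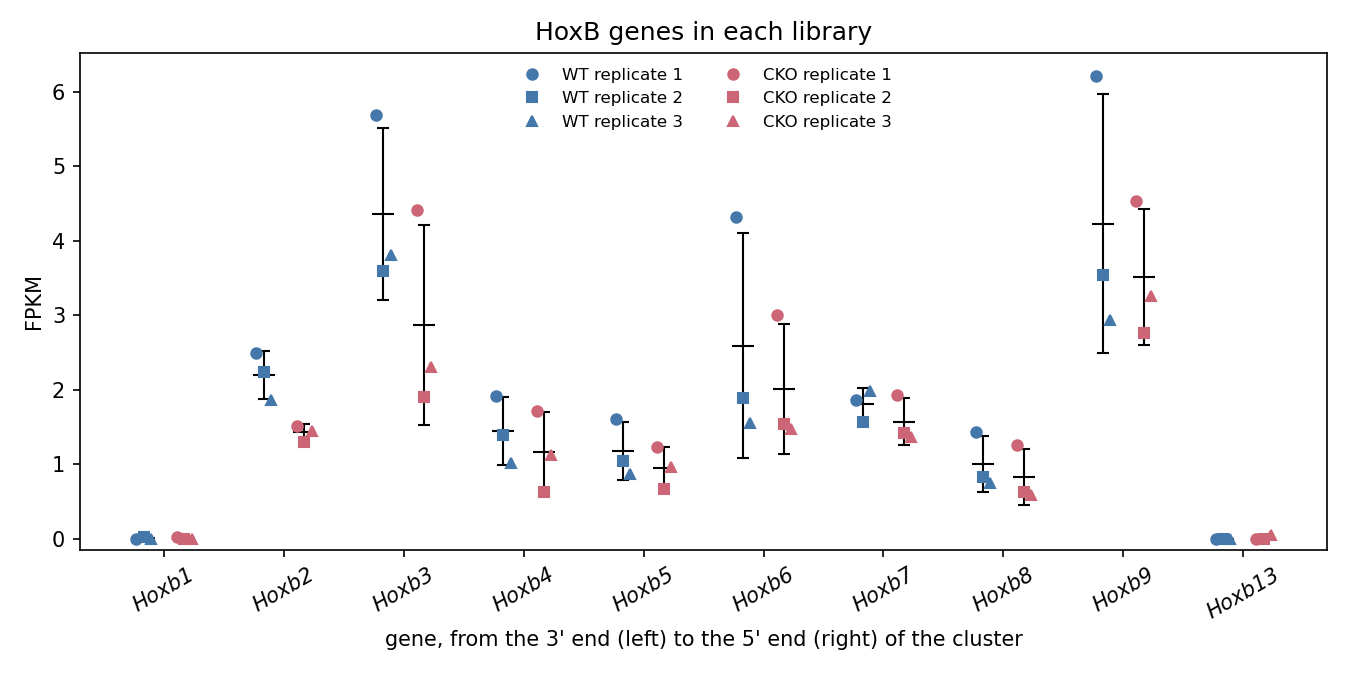
FPKM of the 10 *HoxB* genes in each library, in order along the cluster, with points for replicates, horizontal ticks for group means and bars for the SD (n = 3). *Hoxb1* and *Hoxb13* sit at or near 0, and *Hoxb2* is the 1 gene whose WT and CKO points do not overlap.

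In WT limb buds the order of mean FPKM was *Hoxb3* (4.36 ± 1.15, SD, n = 3), *Hoxb9* (4.23 ± 1.74), *Hoxb6* (2.59 ± 1.51), *Hoxb2* (2.20 ± 0.317), *Hoxb7* (1.81 ± 0.216), *Hoxb4* (1.45 ± 0.455), *Hoxb5* (1.18 ± 0.387) and *Hoxb8* (1.0 ± 0.374). The ranges of each pair of neighbours in this order overlapped. Within libraries, *Hoxb9* was above *Hoxb6*, *Hoxb4* above *Hoxb5* and *Hoxb5* above *Hoxb8* in 3 of 3 WT libraries, while the other neighbours changed places in at least 1. In CKO limb buds *Hoxb9* (3.52 ± 0.912) stood before *Hoxb3* (2.87 ± 1.34) and *Hoxb7* (1.57 ± 0.315) before *Hoxb2* (1.43 ± 0.112), again with overlapping ranges. *Hoxb9* was above *Hoxb3* in all 3 CKO libraries, while *Hoxb3* was above *Hoxb9* in 2 of the 3 WT libraries. Against all tested genes these are low levels. The median tested gene had a mean FPKM of 7.07, and *Hoxb9* at 3.87 was above 33.2% of them and *Hoxb8* at 0.914 above 7.94%. The reads behind a single value ran from 31, for *Hoxb4* in CKO replicate 2, to 436, for *Hoxb3* in WT replicate 1.

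The question of the comparison was whether the *HoxB* genes differ between WT limb buds and CKO limb buds, in which *Hnrnpk* was lowered but not absent. All 8 tested members had a log2 fold change below 0 on the log2(FPKM + 0.1) scale, as did 49.1% of all 12305 tested genes. The median over the 8 was -0.28, against 0.00 for all tested genes, and it ran from -0.59 without CKO replicate 1 to -0.14 without CKO replicate 2 and -0.09 without WT replicate 1, where 6 of the 8 lay below 0. In limb buds as a whole, fewer cells with a transcript and less of it per cell cannot be told apart. With limma and Benjamini-Hochberg adjustment over all tested genes, 0 of the 8 passed an adjusted *p* of 0.05, and voom on the recovered reads also called 0. Of all tested genes 0.0650% passed it and 0.00813% passed it with a lower value in CKO. At an unadjusted *p* of 0.05, 1 of the 8 was lower in CKO, against 5.46% of all tested genes. The 3 CKO values lay below the 3 WT values in 1 of the 8, against 8.86% of all tested genes. None of the 8 (0) met the rule of a ratio above 2 or below 0.5 at an unadjusted *p* of 0.05, against 0.666% of all tested genes.

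That 1 gene was *Hoxb2* by both counts. Its level in CKO was 66.6% of WT (95% confidence interval 51.1 to 86.9), or -0.59 ± 0.17 (standard error) in log2 fold change, which limma gave an adjusted *p* of 0.388. The gene was lower within all 3 replicate numbers. *Hoxb3* had the lowest log2 fold change of the members, -0.65 ± 0.32 (standard error), with a limma adjusted *p* of 0.653 (with WT replicate 1, or CKO replicate 2 or 3, left out, *Hoxb2* was lower) and an interval of 38.4 to 106% of WT. The other 6 had log2 fold changes between -0.35 at *Hoxb4* and -0.20 at *Hoxb7*, and limma adjusted *p* values from 0.841 to 0.896. Their intervals all included 100% of WT, the widest being 42.4 to 158% at *Hoxb6* and the narrowest 64.2 to 118% at *Hoxb7*. The exact two-sided permutation test on single genes gave *p* = 0.1 for *Hoxb2*, the smallest that 3 against 3 allows, and 0.3 to 0.6 for the other 7.

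**Figure D2:**
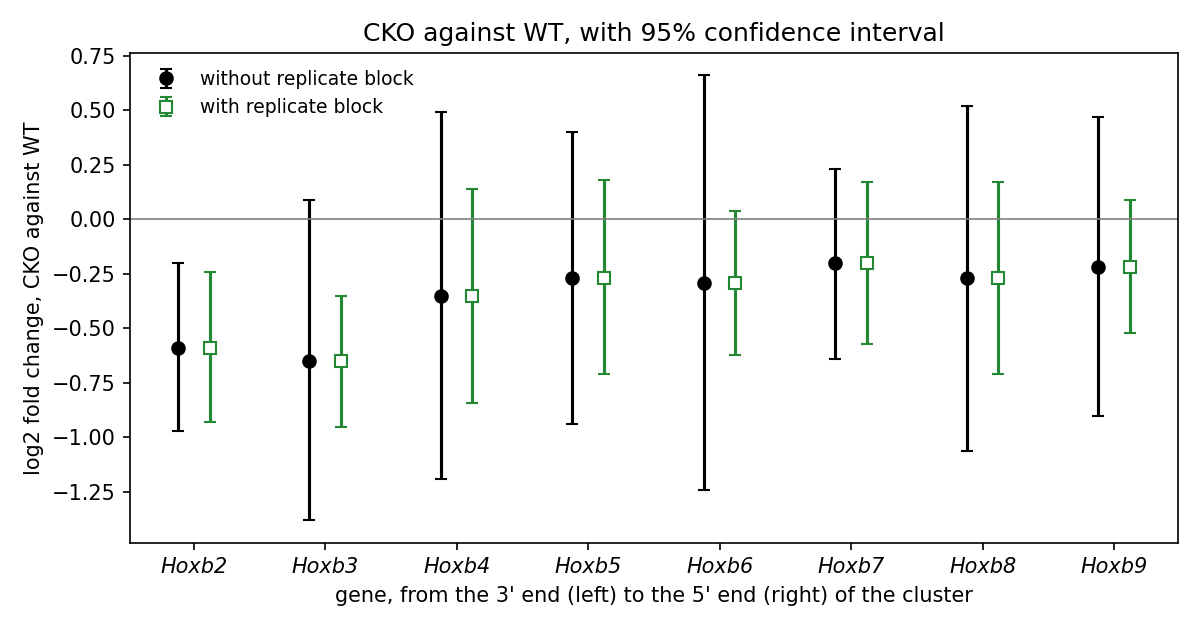
log2 fold change of the 8 tested *HoxB* genes, CKO against WT, with 95% confidence intervals from limma without (filled circles) and with (open squares) the replicate number as a block. All 8 lie below 0, from -0.65 at *Hoxb3* to -0.20 at *Hoxb7*, and the intervals of *Hoxb2* in both fits and of *Hoxb3* with the block do not reach 0.

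The fit was also made with the replicate number as a block, since the deviations of same-numbered WT and CKO libraries from their group means correlated at 0.64, 0.44 and 0.27 for numbers 1, 2 and 3. WT replicate 2 correlated as well with CKO replicate 3 (0.50) and WT replicate 3 with CKO replicate 2 (0.31), so the correlations set replicate 1 apart from the rest and do not tell numbers 2 and 3 from each other. With the block, *Hoxb3* passed the adjusted threshold (limma adjusted *p* = 0.0281, lower in 3 of 3 replicate numbers) and *Hoxb2* did not (0.0722). The range of the adjusted *p* of *Hoxb3* over all 18 alternatives was 7.6e-05 to 1.0, and 4 of them put it under 0.05. Of these, 2 were added after the data were seen, replicates 2 and 3 alone without (limma adjusted *p* = 4.7e-04) and with the block (7.6e-05). The planned ones were the block in limma (0.0281) and voom with the block (0.0147). The block also raised the calls over all tested genes from 8 to 346 (2.81%), of which 207 (1.68%) were lower in CKO, so 1 of 8 members was read against a much larger background. The other 6 members had limma adjusted *p* values from 0.330 to 0.553 with the block.

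Within replicate numbers, 4 of the 8 members (*Hoxb2*, *Hoxb3*, *Hoxb6* and *Hoxb8*) were lower in CKO in all 3, against 21.3% of all tested genes. The median difference of the 8 in log2(FPKM + 0.1), CKO minus WT, was -0.36 in replicate 1, -0.46 in replicate 2 and -0.19 in replicate 3. *Hoxb4* showed the widest spread, with differences of -0.15, -1.04 and 0.13. In replicate 3, *Hoxb4*, *Hoxb5* and *Hoxb9* were above WT by 0.13, 0.13 and 0.14, and in replicate 1 *Hoxb7* was above WT by 0.05. Without WT replicate 1 the log2 fold changes of *Hoxb6* and *Hoxb9* were 0.14 and 0.09, so 6 of the 8 lay below 0. With replicate 1 of both groups left out, an alternative added after the data were seen, these were -0.18 and -0.10 and all 8 lay below 0. Without WT replicate 1, *Hoxb5* and *Hoxb8* were at -0.04 and -0.01, and without CKO replicate 2, *Hoxb4*, *Hoxb5* and *Hoxb9* were at -0.01, -0.06 and -0.06. *Hoxb3* ran from -0.99 without CKO replicate 1 to -0.41 without CKO replicate 2, and *Hoxb2* from -0.69 without WT replicate 3 to -0.49 without WT replicate 1. *Hoxb7* ran from -0.35 without CKO replicate 1 to -0.11 without CKO replicate 3.

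**Figure D3:**
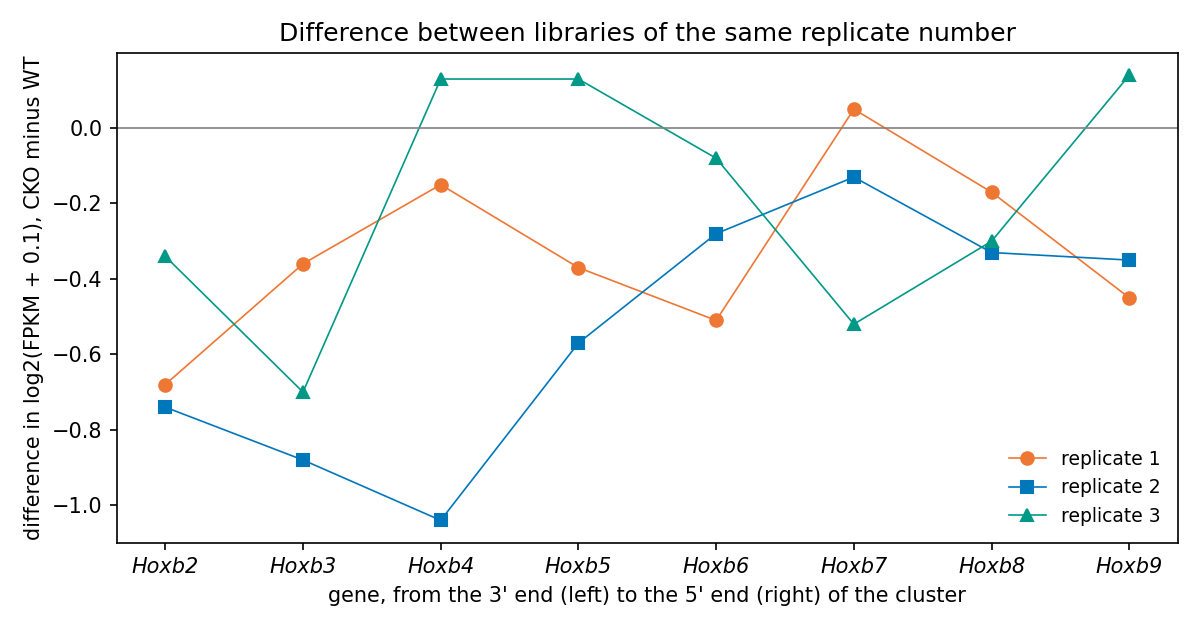
Difference in log2(FPKM + 0.1), CKO minus WT, between libraries of the same replicate number, for the 8 tested *HoxB* genes along the cluster. *Hoxb2* and *Hoxb3* are below 0 in all 3, and *Hoxb4* runs from -1.04 in replicate 2 to 0.13 in replicate 3.

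Along the cluster, the 2 lowest log2 fold changes belonged to the neighbours *Hoxb2* and *Hoxb3*, and the values from *Hoxb4* to *Hoxb9* lay between -0.35 and -0.20. Without CKO replicate 1 the lowest were instead *Hoxb3* (-0.99) and *Hoxb4* (-0.67), with *Hoxb2* at -0.63. Whether the 3' genes differ from the rest was not tested. *Hoxb2* and *Hoxb3* are also the 2 members that share exons with the antisense gene *Hoxb3os*, over 953 bases (27.3% of the exon length) of *Hoxb2* and 2250 bases (52.9%) of *Hoxb3*. *Hoxb5* shares 100 bases (3.59%) with *Hoxb5os*. The libraries were stranded, but whether the counting used the strand is not given in the sources used here, so reads of these genes and of their antisense partners may not be told apart and the 3 values are uncertain in this respect. The antisense genes are not among the genes in the table.

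RefSeq promoters, 250 bases before to 50 bases after the start of the gene on GRCm38.p6, were matched for 3 of the 10 members, *Hoxb8*, *Hoxb4* and *Hoxb1*, all on the plus strand. All 3 matched are shown, to set a gene at or near 0 (*Hoxb1*) beside 2 detected genes (*Hoxb8* and *Hoxb4*), whose levels had a Pearson's *r* of 0.84 over the 6 libraries, about the median of all pairs of members (0.82). Capitals mark matches on either strand to the TATA box TATAAA, the CAAT box CCAAT and the motif TTTATNG. The motifs were chosen after the sequences had been seen.
Hoxb8, chr11:96281655-96281954: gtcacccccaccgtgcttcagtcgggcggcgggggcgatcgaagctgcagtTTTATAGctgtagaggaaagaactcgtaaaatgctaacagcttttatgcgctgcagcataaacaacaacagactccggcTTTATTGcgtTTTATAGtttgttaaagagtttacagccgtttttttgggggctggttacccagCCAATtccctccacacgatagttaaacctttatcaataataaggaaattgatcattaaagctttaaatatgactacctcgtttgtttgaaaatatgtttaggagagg
Hoxb4, chr11:96318017-96318316: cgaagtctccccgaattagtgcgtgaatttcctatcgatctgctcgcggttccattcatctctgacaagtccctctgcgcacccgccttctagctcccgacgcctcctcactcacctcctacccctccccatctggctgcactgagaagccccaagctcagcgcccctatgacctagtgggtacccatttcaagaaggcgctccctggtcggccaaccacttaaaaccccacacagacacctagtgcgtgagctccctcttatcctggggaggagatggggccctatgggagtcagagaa
Hoxb1, chr11:96365508-96365807: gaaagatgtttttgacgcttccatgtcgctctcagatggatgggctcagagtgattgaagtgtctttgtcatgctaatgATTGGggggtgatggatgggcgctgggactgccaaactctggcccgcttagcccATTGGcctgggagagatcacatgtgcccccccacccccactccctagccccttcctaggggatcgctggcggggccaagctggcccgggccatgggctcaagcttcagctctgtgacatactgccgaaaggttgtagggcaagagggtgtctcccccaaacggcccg
*Hoxb8* held 2 matches to TATAAA, 1 to CCAAT and 3 to TTTATNG, a motif of the kind that Cdx proteins bind. Both TATAAA matches overlap a TTTATNG match and lie on the minus strand, opposite to the gene. They are at bases -199 to -194 and -110 to -105 from the start, so they are matches to the letters and not placed TATA boxes. *Hoxb1* held 2 matches to CCAAT, and *Hoxb4* held no match to these 3 motifs. Of the 32851 promoters of 300 bases, 13.6% held TATAAA, 37.4% held CCAAT and 10.9% held TTTATNG. The run CCCC, not marked, was matched 6 times in *Hoxb8*, 8 times in *Hoxb4* and 14 times in *Hoxb1*, overlapping matches included, and 86.4% of all promoters held it. The GC content was 42.3% in *Hoxb8*, 58.0% in *Hoxb4* and 59.3% in *Hoxb1*, against a median of 52.7%. These matches describe the letters only.

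The summed FPKM of the 10 *HoxB* genes was 25.6, 16.1 and 14.8 in WT and 19.6, 10.9 and 12.6 in CKO replicates 1, 2 and 3. Replicate 1 of each group was the highest, CKO replicate 1 was above WT replicates 2 and 3, and the groups overlapped. The mean was 18.8 ± 5.86 (SD, n = 3) in WT and 14.4 ± 4.64 in CKO. Within this sum, *Hoxb3* took 22.3, 22.3 and 25.7% in WT and 22.4, 17.5 and 18.3% in CKO, while *Hoxb9* took 24.3, 21.9 and 19.9% in WT and 23.1, 25.4 and 25.9% in CKO. The *Hoxb3* share was lower in CKO replicates 2 and 3 than in any WT library, and in CKO replicate 1 it was within the WT range.

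Markers of red blood cells ran opposite to the *HoxB* sum across the libraries. All 7 genes of the erythroid list were in the table and none was at 0, and their summed FPKM was 32994, 56046 and 57254 in WT and 26892, 127706 and 75484 in CKO replicates 1, 2 and 3, with *Hbb-y* the most abundant. The 2 libraries with the lowest erythroid sums, replicate 1 of each group, had the highest *HoxB* sums, and CKO replicate 2, with the highest erythroid sum, had the lowest *HoxB* sum. The part of these cells in the *HoxB* values was not tested. The library sizes behind the FPKM were 19146570 and 23848048 in CKO replicates 2 and 3, below their reads on listed genes, so the deposited values were not scaled by plain library size, and their median-ratio factors lay between 0.983 and 1.01.

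Cells that use *HoxB* genes outside the limb mesenchyme were looked at through their markers. The 10 neural tube and motor neuron markers, with *Tubb3* the most abundant, summed to 8.49, 9.20 and 8.33 in WT and 7.26, 8.78 and 8.61 in CKO, and *Neurog2* was listed at 0 in all 6 libraries. Only 4 of these 10 reached the minimum for testing, and *Sox1*, *Olig2*, *Pax6* and *Elavl3* were at 0.0642 or less in each library. Most of the sum came from *Tubb3* and *Isl1*, so it says little of the other markers. The 8 somite, sclerotome and flank mesoderm markers, with *Tbx18* the most abundant and *Ripply1* listed at 0 in all 6, summed to 42.1, 54.7 and 56.9 in WT and 42.9, 40.8 and 43.3 in CKO. Most of this sum was *Tbx18* alone (27.1, 35.6 and 39.3 in WT and 27.3, 27.6 and 29.0 in CKO). Only 5 of the 8 were tested, and *Uncx* and *Mesp2* were at 0.0705 or less in each library. The sum thus mainly follows 1 gene. Neither the neural nor the somite sum was highest in WT replicate 1, where the *HoxB* sum was highest. *Isl1* on the neural list was highest there (3.52, 1.87 and 2.06 in WT and 2.86, 3.34 and 2.72 in CKO). The 7 myogenic precursor markers, led by *Myog*, summed to 18.5, 32.9 and 30.2 in WT and 31.0, 39.1 and 35.8 in CKO, and the 6 neural crest and Schwann precursor markers, led by *Erbb3*, to 3.31, 7.98 and 7.94 in WT and 6.61, 8.30 and 7.53 in CKO. Both sums were lowest in replicate 1 of each group, while *Pax3* on the myogenic list (3.3, 1.13 and 1.32 in WT and 3.14, 1.65 and 2.01 in CKO) was highest there. The 6 macrophage markers, led by *C1qb*, summed to 12.5, 15 and 20.2 in WT and 14.2, 24.3 and 17.6 in CKO, and the 8 limb ectoderm markers, led by *Krt5*, to 45.7, 56 and 65.3 in WT and 48.5, 67.4 and 68.8 in CKO. These sums too were lowest in replicate 1 of each group, opposite to the *HoxB* sum, but not every gene was, since *Fgf8* of the ectodermal ridge (10.6, 6.87 and 6.89 in WT and 10.5, 7.31 and 9.1 in CKO) and the macrophage gene *Cx3cr1* were highest there. The 6 endothelium markers, led by *Cdh5*, summed to 30.3, 21 and 23.8 in WT and 15, 24.1 and 21.5 in CKO, highest in WT replicate 1 like the *HoxB* sum but lowest in CKO replicate 1. None of the genes on these 3 lists was at 0 throughout. The mean log2 level of the limb mesenchyme list was 4.92, 4.81 and 4.84 in WT and 4.87, 4.54 and 4.73 in CKO. It was highest in replicate 1 of each group and had an *r* of 0.88 with the *HoxB* mean. The other lists had an *r* from -0.91 (limb ectoderm) to 0.05 (somite, sclerotome and flank mesoderm). The limb mesenchyme sum was 371, 379 and 370 in WT and 367, 320 and 357 in CKO, lowest in CKO replicate 2 like the *HoxB* sum. Its genes did not move as 1, since the forelimb gene *Tbx5* had an FPKM of 20.3, 19.1 and 19.2 in WT and 15.3, 7.3 and 9.58 in CKO (limma adjusted *p* = 0.358, and 0.00734 with the block) and the hindlimb gene *Pitx1* had 37.7, 46.6 and 39.8 in WT and 48.9, 47.9 and 49.9 in CKO. The 1 other marker past the adjusted threshold with the block was the sclerotome gene *Pax1* (limma adjusted *p* = 0.0414, and 0.430 without it), also lower in CKO. The part of these cell types was not tested either.

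**Figure D4:**
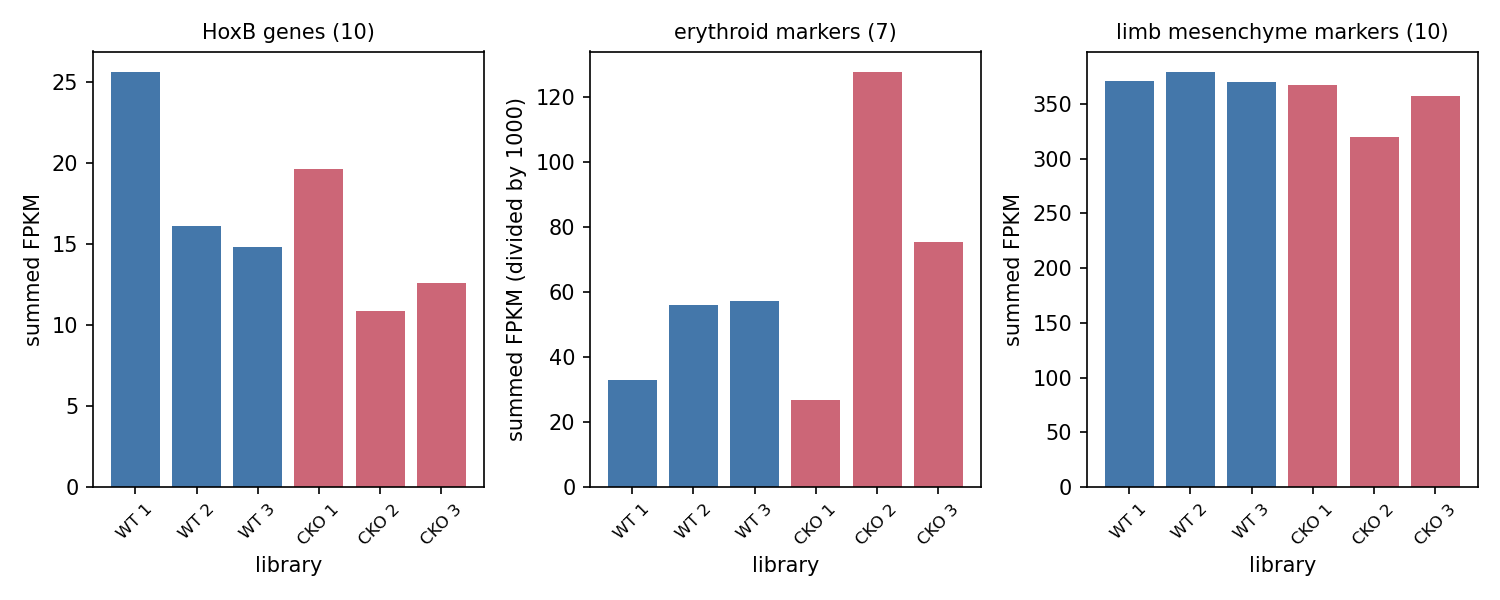
Summed FPKM per library of the 10 *HoxB* genes, of 7 erythroid markers (axis divided by 1000) and of 10 limb mesenchyme markers, with 1 bar per library. The *HoxB* sum is highest in replicate 1 of each group (25.6 and 19.6), where the erythroid sum is lowest (32994 and 26892).

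Across the 6 libraries, Pearson's *r* between the log2(FPKM + 0.1) of 2 tested *HoxB* genes had a median of 0.82 over the 28 pairs, a description over libraries that share their scaling and their replicate numbers. It was highest, at 0.97, for *Hoxb6* with *Hoxb8* and *Hoxb9* and for *Hoxb5* with *Hoxb4* and *Hoxb9*, and lowest, at 0.47, between *Hoxb2* and *Hoxb7*. Set against the mean of the other 7 members, *Hoxb2* (0.68) and *Hoxb7* (0.66) were the least alike and *Hoxb5* (0.95) the most. The 10 tested genes outside the cluster most like the mean of the 8 members over the 6 libraries were *Nde1* (0.996), *Gata6* (0.995), *Lipe* (0.994), *Ak4* (0.993), *Pola2* (0.992), *Ewsr1* (0.991), *Ccl25* (0.988), *Slc16a3*, *Scube1* and *Irx3* (0.986 each). An *r* above 0.9 was reached by 563 of the 12297 tested genes outside the cluster (4.58%). Of other Hox genes, *Hoxd4* (0.97) and *Hoxc8* (0.96) came highest and *Hoxd13* (-0.81) lowest.

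In FPKM, the *HoxB* sum was the smallest of the 4 clusters. In WT the summed FPKM was 206 ± 8.37 (SD, n = 3) for the 11 *HoxA* genes, 47.9 ± 1.47 for the 9 *HoxC* genes and 220 ± 35.6 for the 9 *HoxD* genes, and in CKO it was 185 ± 25.6, 49.9 ± 6.79 and 206 ± 16.0. Gene by gene, the *HoxA* paralog was above the *HoxB* gene by 14.6 times in WT and 15.3 times in CKO for *Hoxa5* over *Hoxb5*, and by 5.79 and 4.48 times for *Hoxa9* over *Hoxb9*. Of the 7 pairs with both genes tested, *Hoxb3* was the exception by group means, since mean *Hoxa3* was 0.648 times *Hoxb3* in WT and 0.924 times in CKO. Mean *Hoxa2* was 1.19 times *Hoxb2* in WT, which rests on WT replicate 1, since the log2 ratio of *Hoxb2* to *Hoxa2* was -0.59, 0.00 and 0.04 in WT replicates 1, 2 and 3. In CKO, mean *Hoxa2* was 1.41 times *Hoxb2*, and the log2 ratio was below 0 in each library (-0.49, -0.22 and -0.64). In group 8, *Hoxb8* stood below *Hoxc8* (2.26 in WT and 1.93 in CKO) and *Hoxd8* (7.47 and 4.42) in mean FPKM. In group 4, *Hoxb4* stood above *Hoxd4* (0.682 and 0.440) and below *Hoxc4* (4.82 and 3.48). *Hoxc5* (2.82 and 1.98) and *Hoxc6* (5.79 and 3.91) were likewise above *Hoxb5* and *Hoxb6*. In group 9, mean *Hoxc9* was 0.914 times *Hoxb9* in WT and 1.41 times in CKO, and mean *Hoxd9* was 6.01 and 4.97 times *Hoxb9*. The log2 ratio of *Hoxb9* to *Hoxc9* was 0.57, -0.01 and -0.38 in WT and -0.41, -0.52 and -0.53 in CKO replicates 1, 2 and 3, a difference in means of -0.55 that was not tested. Only in WT replicate 1 was *Hoxb9* above *Hoxc9*, so the order of the WT means and part of this difference rest on that library.

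A ratio of 2 genes in 1 library depends little on the scaling between libraries, and not wholly, since 0.1 was added to each FPKM. The log2 ratio of *Hoxb3* to *Hoxa3* was 0.66, 0.56 and 0.58 in WT and 0.27, -0.19 and 0.10 in CKO replicates 1, 2 and 3. All 3 CKO ratios were below the WT ratios, by a mean difference of -0.54 (-0.48 and -0.43 with 0.5 and 1 added; exact two-sided permutation *p* = 0.1, and 0.35 after Benjamini-Hochberg adjustment over the 7 *HoxA* pairs). The log2 ratio of *Hoxb7* to *Hoxa7* was -2.0, -1.94 and -1.60 in WT and -1.59, -1.20 and -1.59 in CKO, higher in CKO by 0.38 with the same exact permutation *p* values. This difference ran from 0.25 without CKO replicate 2 to 0.51 without WT replicate 3, and the closest WT and CKO values were -1.60 and -1.59. The smallest *p* that the exact permutation test allows with 3 libraries against 3 is 0.1, so no ratio could pass 0.05 in this test. The ratios were lower in CKO in 3 of the 7 pairs and higher in 4, but those of *Hoxb4*, *Hoxb5* and *Hoxb6* (0.11, 0.01 and -0.12) changed sign with a single library left out, to -0.03 for *Hoxb4* without WT replicate 2, to -0.10 for *Hoxb5* without WT replicate 3 and to 0.08 for *Hoxb6* without CKO replicate 1. The paralogs share exons with other genes as well, which makes their values uncertain too. With antisense genes, *Hoxa7* shares 20.4% of its exon length (*Hoxaas3*), *Hoxa4* 16.0% (*Gm29430*) and *Hoxa3* up to 8.36% (*Hoxaas2*). With genes on the same strand, *Hoxa2* shares 15% and *Hoxa3* 8.01% (both with *Gm28308*), and *Hoxd4* shares 39.1% (*Gm28230*).

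The other clusters are given beside *HoxB* by the same fit. The median log2 fold change was -0.27 for the 11 tested *HoxA* genes, -0.03 for the 8 tested *HoxC* genes and -0.27 for the 7 tested *HoxD* genes, and 9, 4 and 6 of them lay below 0. With 1 library left out these medians ran from -0.39 to -0.06, from -0.17 to 0.11 and from -0.56 to -0.10, the ends being without CKO replicate 1 and without CKO replicate 2, and the *HoxC* median was also above 0 without WT replicate 1 (0.07) and with quantile normalization (0.01), and was -0.23 for genes with a mean FPKM of 1 or more. None passed the limma adjusted *p* of 0.05 without the block, and 2, 2 and 2 were lower in CKO at an unadjusted *p* of 0.05, with 1 *HoxC* gene (*Hoxc10*) higher. With the block, *Hoxa9* (log2 fold change -0.65, limma adjusted *p* = 0.00942), *Hoxa7* (-0.59, 0.0307), *Hoxc6* (-0.57, 0.0410), *Hoxd8* (-0.76, 0.00497) and *Hoxd9* (-0.55, 0.0278) passed, all lower in CKO. The highest of each cluster were *Hoxa13* (0.38), *Hoxc13* (0.59) and *Hoxd13* (0.20), which did not pass in either fit. Without WT replicate 1 they were 0.18, 0.30 and -0.17. For *Hoxd13* the differences within replicate numbers were 0.75, -0.11 and -0.04. *Hoxb13*, their paralog, was at or near 0 in both groups. Whether *HoxB* differs from the other clusters was not tested.

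**Figure D5:**
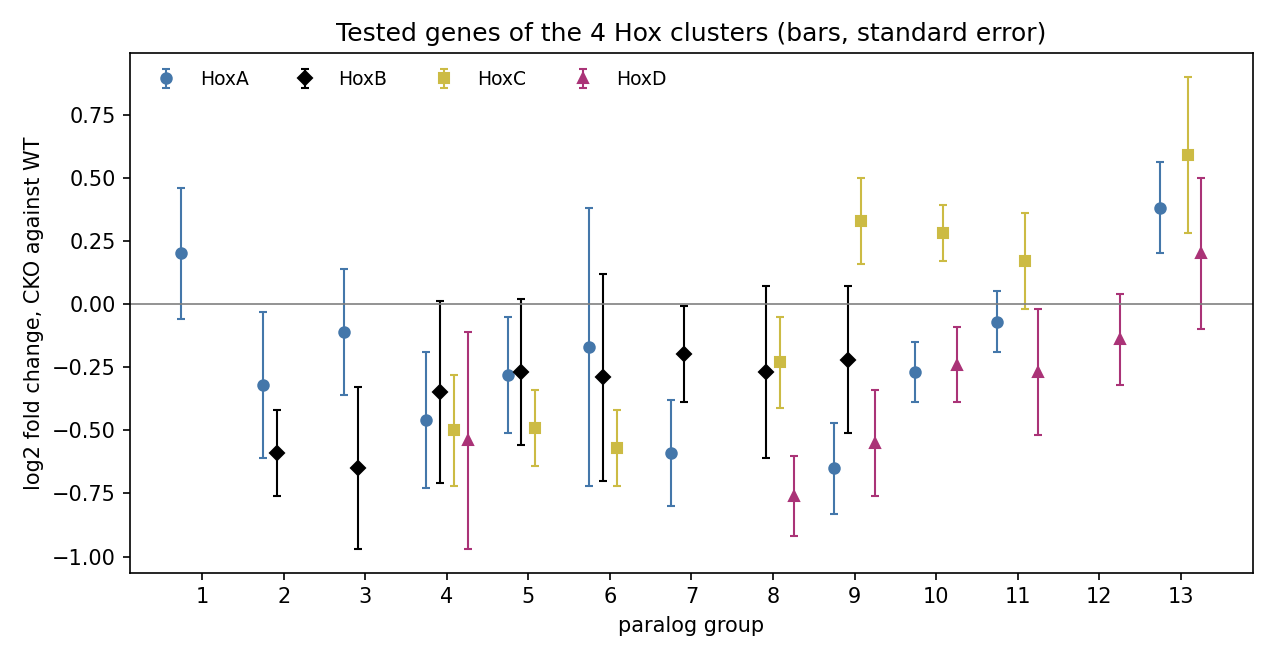
log2 fold change, CKO against WT, of the tested genes of the 4 Hox clusters by paralog group, with bars for the standard error. The *HoxB* genes (black diamonds) of groups 2 to 9 lie between -0.65 and -0.20, and the tested genes of group 13, from the other clusters, lie above 0, although *Hoxd13* (0.20) turns to -0.17 without WT replicate 1.

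Hox proteins bind DNA together with Pbx, Meis and Pknox proteins. All 9 genes of this cofactor list were tested. Their median log2 fold change was -0.11, from -0.29 at *Meis2* to 0.03 at *Pknox2* (without WT replicate 1, -0.03 for the median, -0.03 for *Meis2* and -0.24 for *Pknox2*), and none passed the limma adjusted threshold in either fit. At an unadjusted *p* of 0.05, limma called 0 of the 9 without the block and 1, *Meis2*, with it. Of all tested genes it called 8.31% without the block and 18.4% with it, so 1 of 9 is not above that share. Of 20 known regulators of Hox genes (Cdx proteins, retinoic acid signalling, the ligand Gdf11, and Polycomb, Trithorax and related chromatin proteins), 17 were tested, with a median of -0.09, from -0.72 at *Aldh1a2* to 0.18 at *Eed*, and the median was 0.01 without CKO replicate 2. *Aldh1a2*, which makes retinoic acid, an activator of 3' *HoxB* genes, had an FPKM of 4.93, 11.7 and 11.3 in WT and 2.73, 7.17 and 7.30 in CKO replicates 1, 2 and 3. It was lower in CKO in each replicate number and passed with the block (limma adjusted *p* = 0.00497) but not without it (0.739), and its log2 fold change ran from -1.12 to -0.26 with 1 library left out, the ends being without WT replicate 1 and without CKO replicate 1. Unlike the *HoxB* genes, it was lowest in replicate 1 of both groups. Whether *Aldh1a2* bears on the *HoxB* levels was not tested.

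No other gene of the table lies inside the cluster. Of the 5 nearest table genes on each side, 7 were tested. Their median log2 fold change was 0.04, and 3 of the 7 lay below 0. *Snf8*, beyond *Hoxb13* by 147 kb, was the highest at 0.14. *Copz2*, beyond *Hoxb1* by 482 kb, was the lowest at -0.89, with an FPKM of 2.39, 6.49 and 5.25 in WT and 1.88, 2.65 and 2.41 in CKO. It passed with the block (limma adjusted *p* = 0.0168) but not without it (0.554), and ran from -1.31 to -0.61 with 1 library left out. The nearest gene on either side, *Ttll6* at 28.9 kb and *Skap1* at 96.3 kb, had a mean FPKM too low to be tested.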

How the data were processed

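The authors made stranded mRNA libraries from limb bud cells and deposited FPKM for 22040 genes in 1 table, used here as deposited. The submitters' processing notes name cutadapt 2.5, HISAT2 2.1.0 and featureCounts 1.6.3 and the build mm10 without roles. ATAC-seq, CUT&RUN and Hi-C data were not used here. Reads were recovered as FPKM times merged exon length (GENCODE vM21, GRCm38). All 10 *HoxB* genes came out whole within 0.1 reads. Genes averaging 0.5 FPKM or more over the 6 libraries (12305) were compared on log2(FPKM + 0.1), which understates changes of low genes, with limma 3.58.1 (R 4.3.3, mean-variance trend) and Benjamini-Hochberg adjustment over all of them. Deviations of same-numbered WT and CKO libraries from their group means correlated at 0.64, 0.44 and 0.27 across genes, which are not independent. All being over 0.1, a fit with the number as a block is given beside the main one, which has no block, although libraries 2 and 3 correlated across numbers as well (0.50 and 0.31) and no source says what a number stands for. Members and lists were chosen with earlier results of these data known. The genes named are the members, *Hnrnpk*, genes of the Hox, cofactor, regulator and neighbour lists past the adjusted threshold in either fit or at a list's ends, same-numbered paralogs, the 10 genes most like the members' mean and, after their values were seen, *Hoxc10*, *Ttll6*, *Skap1* and single marker genes. Floors and counts of reads cover counting error only. Alternatives tried were a pseudocount of 0.5 or 1, filters at 0 or 1 FPKM, median-ratio and quantile scaling, no trend, voom on recovered reads, the replicate block and each library left out.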

Additional observations from a re-analysis of the deposited data

How the results depend on the processing

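Of 18 alternatives, 16 were planned, and 2 were added after the data were seen: replicates 2 and 3 alone, without and with the block. They were chosen after replicate 1 of both groups was seen to stand apart, so their values show dependence on it and no more. The number of tested genes past the limma adjusted threshold was 8, and it was 14 with quantile normalization, 346 with the replicate block, 651 with voom and the block, 1851 with replicates 2 and 3 alone and 2280 with these and the block. It was 1 to 23 with 1 library left out. The number of *HoxB* genes past the adjusted threshold was 0, and it was 1 with the replicate block and with voom and the block (*Hoxb3*), and 2 with replicates 2 and 3 alone, without or with the block (*Hoxb2* and *Hoxb3*). At an unadjusted *p* of 0.05 the number was 1, and it was 2 in those 4 settings and 1 to 2 with 1 library left out (2 without CKO replicate 1). Of all tested genes, in either direction, 8.31% passed it, and 18.4% with the block, 20.6% with voom and the block, 29.0 and 30.4% with replicates 2 and 3 alone without and with the block, and 19.6% without CKO replicate 1. The cause was not tested. Without WT replicate 1 the log2 fold changes of *Hoxb6* and *Hoxb9* turned to 0.14 and 0.09 (-0.18 and -0.10 with CKO replicate 1 left out too), and over all libraries left out they ran from -0.61 to 0.14 and from -0.44 to 0.09. The median over the *HoxB* genes tested ran from -0.59 without CKO replicate 1 to -0.09 without WT replicate 1, below 0 in all 18. The block changed no other *HoxB* call. Depth limits the low genes, since 5 tested members had under 100 reads in at least 1 library of each group, the least being 31.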
